A study of Mus musculus with 12 samples.

Results

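The contrast described here asks whether pancreatic islets respond to a transgene, insHEL, differently on 2 genetic backgrounds of the mouse. For each gene it is the log2 change with insHEL on the NOD background minus the log2 change with insHEL on the B10 background, so a positive value means that the gene was raised more, or lowered less, by insHEL in NOD. All 12 of the series' 12 islet RNA-seq libraries enter it, chosen only by their labelled genotype, 3 mice in each of 4 groups.

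Every mouse was a male of 11 weeks labelled normoglycemic, with the MHC k haplotype (BR-H2k) and the Ragtm1Mom allele, described as Rag-/-, a genotype without mature T and B cells. The group called B10 was on C57BL/10SnSg without transgene, and B10_insHEL was the same strain with Tg(ILK3mHEL)3Ccg. The groups NOD and NOD_insHEL were the corresponding mice on NOD/LtJ, the non-obese diabetic strain. The transgene expresses hen egg lysozyme from an insulin promoter, so that beta cells make a foreign protein. Its name gives a C57BL/6 donor and 1 transgenic line, and the Rag allele has a 129S7(B6) donor, so each strain can hold donor segments around these loci beside its background genome. The count table has no row for the construct, and the amount of lysozyme made in either background was not measured. Expression is given as TMM-scaled CPM, the counts scaled to a common library total, over the 3 mice of a group.

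Islets are clusters of endocrine cells, mostly insulin-secreting beta cells, crossed by a dense bed of fenestrated capillaries that beta cells attract and keep with vascular growth factors. A transgene effect that differs by background is a gene-by-background interaction, and it is a different quantity from the transgene effect or the strain difference itself: a gene can differ greatly between strains and still respond equally to the transgene. In whole islets, fewer cells of a type and less RNA per cell cannot be told apart.

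Few genes passed the test of the difference itself. By edgeR's quasi-likelihood F-test, 9 of 15352 genes had an adjusted p under 0.05 for the interaction (0.0586% of the genes tested), 7 with a more positive and 2 with a more negative change in NOD. Before adjustment 1873 genes had p under 0.05, 920 positive and 953 negative, and at an adjusted p under 0.1 the count was 23. The median log2 interaction over all genes was -0.01, the median standard error 0.25, and the smallest difference called 0.82. As many as 854 of the 860 genes with a log2 interaction of at least 1 in size were not called.

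Genes called in 1 background and missed in the other seldom passed the test of the difference itself. The interaction had a larger median standard error, 0.25, against 0.17 for the change in B10 and 0.18 in NOD. Missing its threshold therefore does not show equal responses. In B10, 1052 genes (6.85%) changed with insHEL and in NOD 1084 (7.06%), both at an adjusted p under 0.05 in the same edgeR fit. Of the 742 genes called in B10 and not in NOD, 3 passed the test of the difference (Mlph, Fmo1 and Ank2). Of the 774 called in NOD and not in B10, 1 passed (Slitrk6). Among the 310 genes called in both backgrounds, 305 moved the same way and none of these passed by edgeR (this pattern held 0 genes by DESeq2 as well). The other 5 moved in opposite directions, and all 5 passed (Dpp4, Chl1, Pla2g2d, Podxl and Flt1). The 9 genes thus fall into 4 with a response called in 1 background and 5 with opposite responses. Without B10_insHEL replicate 2, 98 of the 1164 genes called in B10 and not in NOD passed. So did 29 of the 1120 called in NOD and not in B10. Opposite responses were called in 0 genes with the replicate number as a block, with each library's level of long against short genes as a covariate or with libraries thinned to the shallowest. Leaving out 1 library gave 0 to 18, with 0 for B10 replicate 3, NOD replicates 2 and 3 and NOD_insHEL replicate 1, and 18 for B10_insHEL replicate 2. In the scatter of the 2 responses these genes lie away from the line of equal change.

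**Figure D1:**
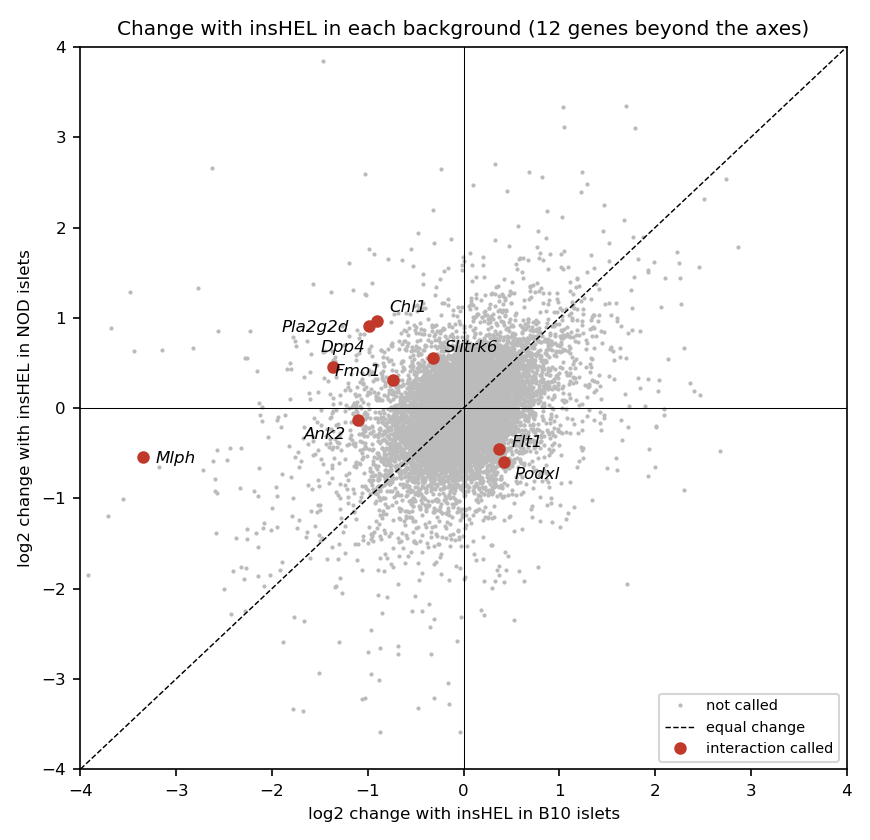
Log2 change with insHEL in B10 islets (horizontal axis) against that in NOD islets (vertical axis) for the genes tested, 1 point per gene, the 9 genes with a called interaction in red; the dashed line marks equal change and 12 genes lie beyond 4 on either axis. Mlph stands far to the left, Chl1, Pla2g2d and Dpp4 lie upper left and Flt1 and Podxl lower right.

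The count of 9 genes depended on the fit, and among single libraries it depended most on 1. It was 161 with no filter on low counts, 40 with the acinar level as a covariate and 105 by DESeq2's Wald test, which called 1.32% of the 7934 genes it gave an adjusted p. B10_insHEL replicate 2 held transcripts of the exocrine pancreas at the level of the B10 group: the mean log2 CPM of the tested acinar markers was 4.69 there, against 0.26 and -0.31 in B10_insHEL replicates 1 and 3. The same mean was 5.25 to 5.63 across B10, 1.19 to 1.74 across NOD and -0.09 to 0.81 across NOD_insHEL. The summed acinar level ranged from 4669 to 5988 CPM across B10, 216 to 3312 across B10_insHEL, 262 to 434 across NOD and 171 to 265 across NOD_insHEL, with Amy2a3, Amy2a4 and Amy2a5 at 0 in every library. Without this library 162 of 15528 genes passed (1.04%), 97 positive and 65 negative, and all 9 genes were among them. Leaving out any other single library gave 2 to 20. The part that acinar carry-over has in these counts was not tested.

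Other facts bear on every value. Totals ran from 2212062 counts in NOD_insHEL replicate 3 to 21138456 in B10 replicate 2, and 20 to 137 islets were picked per library. In the sample descriptions the 3 B10 libraries have running numbers far above those of the remaining 9. Should such numbers mark a preparation, it cannot be told apart from the B10 group, which enters the contrast. Beta cell identity was clear in all libraries, with Ins1 from 42980 to 83180 CPM and the beta cell regulator Pdx1 from 198 to 291 CPM. Rag2 had 0 counts throughout, Rag1 13 to 141, and the T cell genes Cd3e and Cd3d had 0 in all libraries. Long genes stood higher than short genes in some libraries: the median over the 3799 genes of longest exonic length minus that over the 3802 of shortest, each gene's log2 CPM being centred on its mean, was 0.08 to 0.24 in B10 and 0.15 in B10_insHEL replicate 2, and below 0 in the other 8.

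Mlph and Dpp4 were called in every alternative analysis that gave them an adjusted p, and the bases just before their transcription starts are shown because the results turn most on these genes. The windows cover the 250 bases before the RefSeq start on GRCm38.p6, for Mlph chr1:90914850-90915099 on the plus strand and for Dpp4 chr2:62412232-62412481 on the minus strand. Capitals mark matches to 4 short motifs searched on both strands, namely the TATA box, spelled TATAAA, the pentamer spelled CCAAT that binds factor NF-Y, the GC box, spelled GGGCGG, and the palindromic E-box, spelled CACGTG.
Mlph promoter: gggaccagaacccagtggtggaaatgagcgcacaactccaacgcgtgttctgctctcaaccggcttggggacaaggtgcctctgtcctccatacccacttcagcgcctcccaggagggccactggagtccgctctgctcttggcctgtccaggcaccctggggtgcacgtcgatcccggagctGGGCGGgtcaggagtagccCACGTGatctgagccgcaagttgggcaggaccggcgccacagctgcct
Dpp4 promoter: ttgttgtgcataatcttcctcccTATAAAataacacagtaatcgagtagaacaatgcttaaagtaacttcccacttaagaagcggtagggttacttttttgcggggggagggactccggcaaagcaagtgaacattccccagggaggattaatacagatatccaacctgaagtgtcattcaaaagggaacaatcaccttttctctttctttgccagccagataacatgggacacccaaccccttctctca
The Mlph window held the GC box at position -67 and the E-box at -48 from the start, and the Dpp4 window held the TATA box at -227. Of 32851 promoter windows of this length, 32.74% held the GC box. The E-box was in 6.02% of them, the TATA box in 12.37% and the NF-Y pentamer in 33.85%. These are matches of letters, and no binding was measured.

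Mlph (ENSMUSG00000026303, chromosome 1, 90915085 to 90951142 on GRCm38) lost nearly all of its transcript with insHEL in B10 and far less in NOD. It encodes melanophilin, a linker of granules to the actin motor myosin Va, which in beta cells takes part in moving insulin granules. Mlph stood at 13.98, 12.8 and 17.9 CPM in B10 and at 1.72, 1.30 and 1.34 CPM in B10_insHEL. In NOD it stood at 28.7, 27.3 and 27.7 CPM and in NOD_insHEL at 19.9, 14.8 and 24.9 CPM. The 3 B10_insHEL libraries were thus the lowest of all 12, and insHEL and non-transgenic libraries did not overlap in either background. The mean with insHEL was 0.098 times that without in B10 and 0.71 times in NOD, and NOD exceeded B10 1.88-fold without and 13.7-fold with the transgene. The log2 interaction was 2.81 (SE 0.30, adjusted p = 5.54e-05, edgeR), from -3.35 in B10 (adjusted p = 2.32e-08) and -0.54 in NOD (adjusted p = 0.0719). Partners of melanophilin, named after their values were seen, did not pass by edgeR: the log2 interaction was 0.19 for Rab27a (adjusted p = 0.651) and 0.13 for Myo5a (adjusted p = 0.792).

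Dpp4 (ENSMUSG00000035000, chromosome 2, 62330073 to 62412231) fell with insHEL in B10 and rose in NOD. It encodes dipeptidyl peptidase 4, the cell-surface protease that inactivates the incretin GLP-1. The values were 72.2, 53.7 and 70.7 CPM in B10 and 22.8, 27.1 and 26.6 CPM in B10_insHEL. They were 105, 85.1 and 87.1 CPM in NOD and 123, 146 and 110.3 CPM in NOD_insHEL. Neither background had overlapping libraries, and every NOD_insHEL library was above every NOD library while every B10_insHEL library was below every B10 one. The log2 interaction was 1.81 (SE 0.19, adjusted p = 5.54e-05, edgeR), from -1.36 in B10 (adjusted p = 1.59e-05) and 0.46 in NOD (adjusted p = 0.0423). NOD exceeded B10 1.41-fold without insHEL and 4.95-fold with it.

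**Figure D2:**
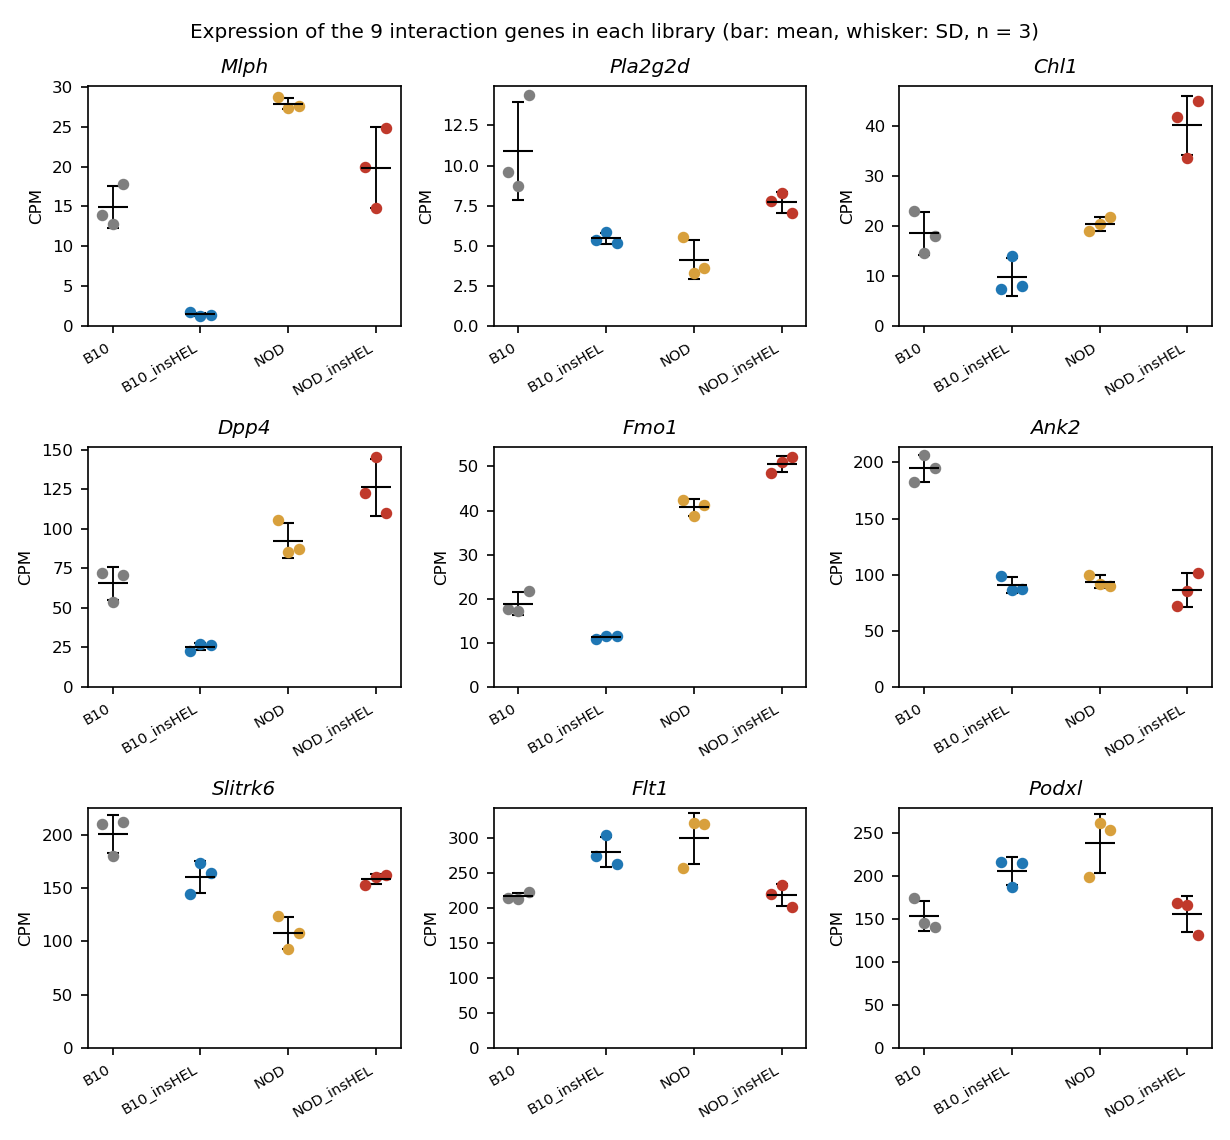
CPM (vertical axes, from 0) of the 9 interaction genes in each of the 12 libraries by group, 1 point per library, with the group mean (bar) and SD (whisker, n = 3). Mlph stands lowest in B10_insHEL, and Podxl and Flt1 rise from B10 to B10_insHEL and fall from NOD to NOD_insHEL.

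Chl1 (ENSMUSG00000030077, chromosome 6, 103510586 to 103750211) encodes close homolog of L1, a neural adhesion molecule, and it too went opposite ways. It measured 22.995, 14.6 and 18.1 CPM in B10 and 7.41, 14.1 and 7.94 CPM in B10_insHEL, where the highest value is that of replicate 2. It measured 19.0, 20.4 and 21.7 CPM in NOD and 41.9, 33.6 and 45.1 CPM in NOD_insHEL. The groups did not overlap, though the lowest B10 library and B10_insHEL replicate 2 nearly met. The log2 interaction was 1.87 (SE 0.30, adjusted p = 0.0309, edgeR), from -0.90 in B10 and 0.97 in NOD, and 2.23 without B10_insHEL replicate 2 (adjusted p = 3.83e-05).

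Pla2g2d (ENSMUSG00000041202, chromosome 4, 138775735 to 138782046), a secreted phospholipase A2 known mainly from dendritic cells, was the third gene lowered in B10 and raised in NOD. In B10 it had 9.60, 8.70 and 14.4 CPM, falling to 5.37, 5.83 and 5.16 CPM in B10_insHEL. In NOD it had 5.53, 3.27 and 3.60 CPM, rising to 7.76, 8.31 and 7.04 CPM in NOD_insHEL. The order of the backgrounds turned: the NOD mean was 0.38 times the B10 mean without insHEL and 1.41 times with it. The log2 interaction was 1.90 (SE 0.35, adjusted p = 0.0490, edgeR). Markers of macrophages and dendritic cells summed to 435 to 543 CPM across B10, 569 to 730 across B10_insHEL, 459 to 663 across NOD and 517 to 658 across NOD_insHEL, and none of the 27 tested passed by edgeR (1 at an unadjusted p under 0.05, none by DESeq2). Their part in the value of Pla2g2d was not tested.

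Fmo1 and Ank2 were lowered by insHEL in B10 with no call in NOD. Fmo1 (ENSMUSG00000040181, chromosome 1, 162829561 to 162866610), a flavin-containing monooxygenase that oxidises foreign compounds, had 17.7, 17.2 and 21.8 CPM in B10 against 10.96, 11.6 and 11.4 CPM in B10_insHEL. The values were 42.4, 38.7 and 41.2 CPM in NOD against 48.6, 50.9 and 52.1 CPM in NOD_insHEL. Its libraries did not overlap in either background, with a log2 interaction of 1.04 (SE 0.18, adjusted p = 0.0309, edgeR) from -0.73 in B10 and 0.31 in NOD (adjusted p = 0.131). Ank2 (ENSMUSG00000032826, chromosome 3, 126921612 to 127499350) encodes ankyrin B, which ties membrane channels and adhesion molecules to the spectrin skeleton. It had 182, 207 and 195 CPM in B10 and 98.8, 86.2 and 87.7 CPM in B10_insHEL. In NOD it had 92.0 and 89.6 CPM in replicates 2 and 3 without insHEL (mean 93.9 ± 5.46, n = 3) and 71.9, 85.9 and 101.9 CPM with it. The B10 libraries stood at about double the level of all others, and the NOD and NOD_insHEL libraries overlapped. The log2 interaction of Ank2 was 0.96 (SE 0.17, adjusted p = 0.0309, edgeR), from -1.10 in B10 and -0.14 in NOD (adjusted p = 0.535).

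Slitrk6 (ENSMUSG00000045871, chromosome 14, 110748580 to 110755149), a membrane protein of the Slit and Trk-like family that shapes neurite growth and synapses, was the gene called with insHEL in NOD alone. Its B10 libraries had 210.3, 180.0 and 212 CPM and its B10_insHEL libraries 144, 173 and 164 CPM. Its NOD libraries had 123, 92.7 and 108 CPM and its NOD_insHEL libraries 153, 160.2 and 162 CPM. The backgrounds differed without the transgene and met with it: the NOD mean was 0.54 times the B10 mean without insHEL and 0.99 times with it. Its log2 interaction was 0.88 (SE 0.16, adjusted p = 0.0490, edgeR), from -0.32 in B10 (adjusted p = 0.0935) and 0.55 in NOD (adjusted p = 0.00950).

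Both genes on the negative side are expressed in vascular endothelium, and both rose with insHEL in B10 and fell in NOD. Podxl (ENSMUSG00000025608, chromosome 6, 31519488 to 31563981), a sialomucin of the luminal endothelial surface, had 174, 145 and 141 CPM in B10 and 215, 187 and 214 CPM in B10_insHEL, against 198, 261 and 253 CPM in NOD and then 168, 166 and 131 CPM in NOD_insHEL. Flt1 (ENSMUSG00000029648, chromosome 5, 147561604 to 147726011), the receptor VEGFR1 that binds Vegfa and placental growth factor, had 215, 213 and 223 CPM in B10 and 274, 304 and 262 CPM in B10_insHEL, and 257, 321 and 320.3 CPM in NOD and 221, 233 and 202 CPM in NOD_insHEL. No groups overlapped within a background for either gene. The log2 interaction was -1.03 for Podxl (SE 0.18, adjusted p = 0.0309, edgeR), from 0.42 in B10 and -0.60 in NOD. It was -0.82 for Flt1 (SE 0.15, adjusted p = 0.0490, edgeR), from 0.37 in B10 and -0.45 in NOD. Without insHEL the NOD means were 1.55 and 1.38 times the B10 means for Podxl and Flt1, and with it 0.76 and 0.78 times.

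In the background where it changed more, each of the 9 genes had no overlap between its insHEL and non-transgenic libraries, which 40.5% of all genes tested also showed. How many of all genes lack overlap in both backgrounds at once was not counted. Statements above of no overlap in both thus only describe the values of single genes. Mlph and Dpp4 were called in each of 12 fits that left out 1 library. The other 7 were called in 2 (Flt1, Slitrk6), 3 (Podxl, Fmo1, Pla2g2d), 4 (Ank2) or 5 (Chl1) of the 12, and each of the 9 kept its sign. With each library's level of long against short genes as a covariate, none of these 7 was called. Among the 54 nearest tested genes, 3 on each side of each gene, none was called by edgeR, 6 had an unadjusted p under 0.05, and the lowest adjusted p was 0.263.

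**Figure D3:**
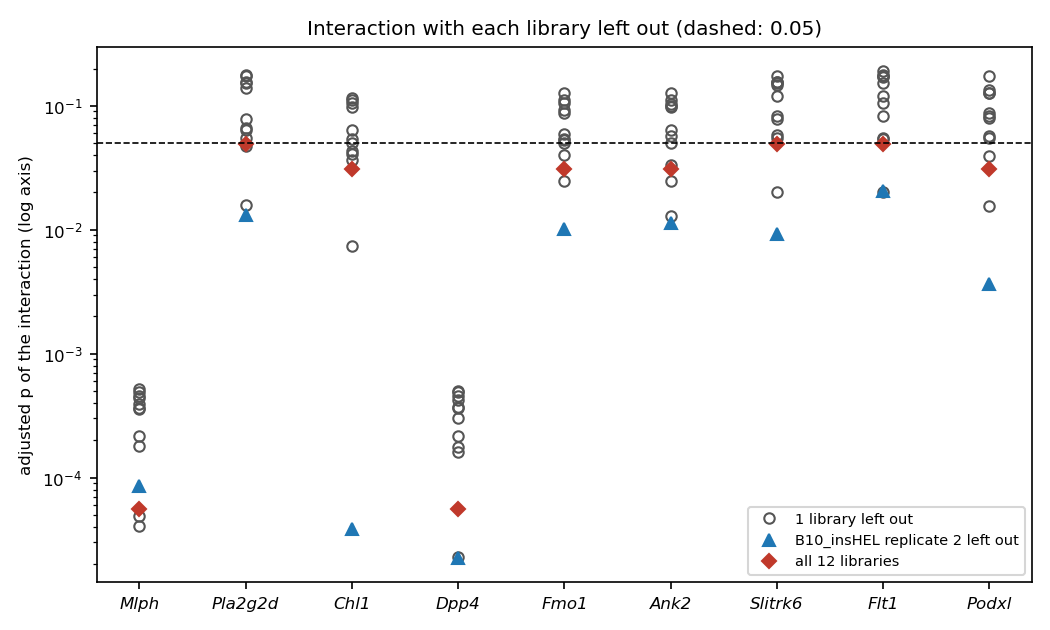
Adjusted p of the interaction (log axis) for the 9 genes with all 12 libraries (diamonds), with B10_insHEL replicate 2 left out (triangles) and with each other library left out (open circles); the dashed line marks 0.05. Mlph and Dpp4 lie below the line in every fit and the other 7 genes cross it.

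Endothelial markers leaned in opposite fitted directions on the 2 backgrounds. Of 31 tested markers, 2 were called negative (Podxl and Flt1) and 29 were not called. As a description, 29 of 31 had a negative log2 interaction, against 50.8% of all genes tested, 25 had opposite signs in the 2 backgrounds, against 5821 of 15352 genes, and 23 had an unadjusted p under 0.05, against 1873 of 15352. The list was chosen with earlier results of these data known and its members mark the same cell type, so these counts are no independent evidence. The list's median log2 interaction was -0.68 (all genes -0.01), from 0.14 in B10 and -0.52 in NOD. It ranged from -0.80 to -0.51 over the 22 alternatives run, including the acinar level (-0.69) and the long-gene level (-0.71) as covariates. Neither Podxl nor Flt1 was called, however, with the long-gene level or the islet number as a covariate. DESeq2 called 9 of the list's 22 members with an adjusted p, all negative, against 105 of 7934 over all such genes.

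Summed over the list, endothelial transcripts were 2233 to 2425 CPM across B10, 2503 to 2780 across B10_insHEL, 2981 to 3920 across NOD and 2385 to 2787 across NOD_insHEL. The 3 NOD libraries were the highest, the B10 libraries were the lowest with 1 NOD_insHEL library among them, and the 2 transgenic groups overlapped. At the ends of the list, named after their values were seen, the lipase anchor Gpihbp1 of capillary endothelium had a log2 interaction of -1.20 (SE 0.32, adjusted p = 0.173, edgeR) and Ece1, which processes endothelin, 0.13 (SE 0.17, adjusted p = 0.786). Without B10_insHEL replicate 2, 5 of 31 markers were called negative, against 65 of 15528 genes tested. They were Podxl, Flt1, Plvap (log2 interaction -0.91), the diaphragm protein of fenestrated capillaries, Esm1 (-0.94), an endothelial proteoglycan, and Ehd4 (-0.86).

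**Figure D4:**
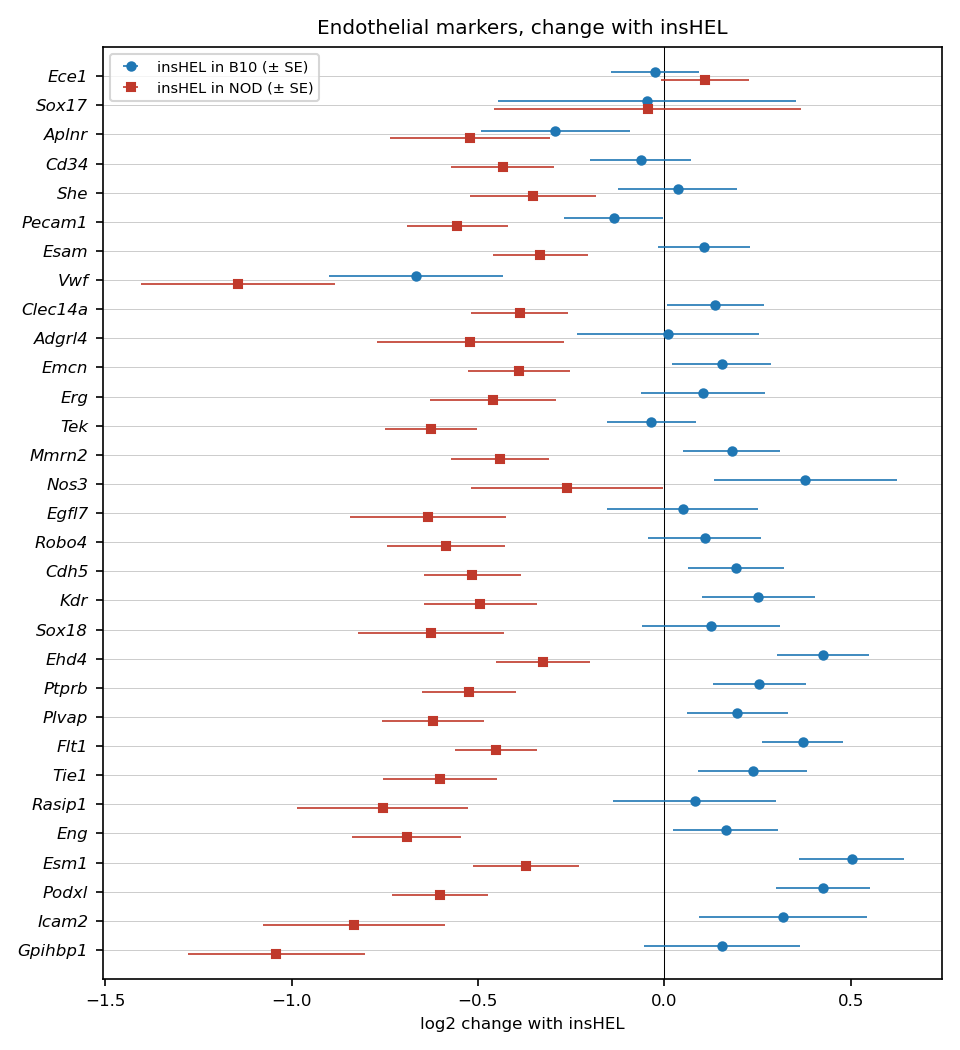
Log2 change with insHEL (horizontal axis, ± SE) in B10 (circles) and NOD (squares) for the 31 tested endothelial markers, ordered by interaction. Most circles lie right of 0 and most squares left of 0; Ece1 and Sox17 do not follow this order.

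Genes of vascular signalling gave no call with all libraries, though they too leaned negative. None of 27 tested Vegf, angiopoietin and Notch genes passed by edgeR (7 at an unadjusted p under 0.05, 0 by DESeq2 among 11), and the median log2 interaction was -0.37, with 24 negative. Over all genes tested, 1873 of 15352 had an unadjusted p under 0.05 and 50.8% were negative. The 2 with the smallest p were Nrp1, a coreceptor for Vegfa (-0.65, SE 0.18, adjusted p = 0.181, edgeR), and Sema3g (-0.95, SE 0.34, adjusted p = 0.285). The ligand Vegfa itself, named after its value was seen, had a log2 interaction of -0.01 (SE 0.16, adjusted p = 0.987, edgeR), from -0.28 in B10 and -0.29 in NOD.

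Neural adhesion and axon guidance genes, many of which endocrine cells and islet nerves also express, gave 3 of 38 positive calls and no negative one (9 of 15352 over all genes): Chl1, Ank2 and Slitrk6. These 3 were placed in the list with their results known, so the count is no independent evidence. The list's median log2 interaction was 0.26 (0.41 without B10_insHEL replicate 2 and 0.13 with the long-gene level as a covariate), and 17 members had an unadjusted p under 0.05 by edgeR, against 1873 of 15352 genes. Among those that missed the threshold, named after their values were seen, Nrcam, a relative of Chl1, had 6.28 ± 1.92 CPM in B10 and 4.56 ± 0.86 CPM in B10_insHEL, against 18.0 ± 1.06 CPM in NOD and 36.8 ± 11.8 CPM in NOD_insHEL (SD, n = 3 each). Its log2 interaction was 1.56 (adjusted p = 0.103, edgeR). Ncam2 had 8.04 ± 0.62, 2.78 ± 0.92, 3.19 ± 0.13 and 3.88 ± 1.26 CPM in these groups in the same order (n = 3 each), with a log2 interaction of 1.70 (adjusted p = 0.132, edgeR, and 0.0354 without B10_insHEL replicate 2).

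Schwann cell markers would follow nerve and glial cells around islets. With all libraries edgeR called none of 16 (1 at an unadjusted p under 0.05, 0 by DESeq2 among 4). Their summed level was 155 to 188 CPM across B10, 88.3 to 157 across B10_insHEL, 170.4 to 185 across NOD and 148 to 179.8 across NOD_insHEL. In B10_insHEL replicates 1, 2 and 3 the Schwann sum was 88.3, 157 and 119 CPM. The neural adhesion list summed to 1453, 1429 and 1322 CPM there, against 1605 to 1767 across B10. The part of Schwann cells in the neural gene levels was not tested. The median log2 interaction of the Schwann cell markers was 0.26 with all libraries and 0.57 without B10_insHEL replicate 2. In the latter fit edgeR called 1 of 16 positive (4 at an unadjusted p under 0.05), against 97 positive of 15528 genes tested.

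Beta cell genes beyond Mlph gave no call with all libraries. In the list of secretory and glucose sensing genes 1 of 37 passed (Mlph, placed there with its result known), the median log2 interaction was 0.14 and 11 had an unadjusted p under 0.05, against 1873 of 15352 genes. The glucose transporter gene Slc2a2, named after its values were seen, had 721, 679 and 841 CPM in B10 and 549.9, 298 and 417 CPM in B10_insHEL, against 751, 801 and 788 CPM in NOD and 870.2, 877 and 829.7 CPM in NOD_insHEL. B10_insHEL alone stood low, with its lowest value in replicate 2. The log2 interaction of Slc2a2 was 0.97 (SE 0.22, adjusted p = 0.132, edgeR), and 0.77 (adjusted p = 0.0311) without that library.

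None of 22 beta cell transcription factors passed by edgeR, none had an unadjusted p under 0.05, none of 20 passed by DESeq2, and the median log2 interaction was 0.01. The smallest p values belonged to Insm1 (0.38, SE 0.19, adjusted p = 0.424, edgeR) and Esrrg (0.50, SE 0.26, adjusted p = 0.443). Glis3, a regulator of beta cell differentiation and a diabetes risk gene, had -0.06 (SE 0.19, adjusted p = 0.924), and Xrcc4, a DNA end-joining factor, 0.23 (SE 0.25, adjusted p = 0.748). The hormones missed too: log2 interactions were -0.45 for Ins1 (SE 0.20, adjusted p = 0.381, edgeR), -0.25 for Ins2 (SE 0.19), -0.08 for Iapp (SE 0.16), 0.36 for Gcg (SE 0.90) and 0.21 for Sst (SE 0.48). The error of Gcg was above the smallest interaction called, 0.82 in size. That of Sst was below it, but larger than those of Iapp, Ins2 and Glis3.

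Protein-folding genes leaned upward with insHEL on both backgrounds. ER chaperones and folding enzymes had a median log2 change of 0.72 in B10 and 0.54 in NOD, with opposite signs in 1 of 29. With all libraries none of the 29 had a called interaction by edgeR (5 at an unadjusted p under 0.05, 0 by DESeq2 among 28). The median log2 interaction was -0.23, and 22 of 29 were negative, against 50.8% of all genes tested. That median ranged from -0.33 to -0.04 over the alternatives run. The lowest edgeR p values were those of the prolyl isomerases Fkbp2 (-0.63, adjusted p = 0.241) and Ppib (-0.67, adjusted p = 0.289). Among unfolded protein response sensors and degradation genes, 0 of 30 passed by edgeR (3 at an unadjusted p under 0.05, 0 by DESeq2 among 30), with a median of -0.14. The 2 leading genes were Edem2 (-0.57, adjusted p = 0.223) and Mbtps2 (0.62, adjusted p = 0.274), which cleaves the stress sensor Atf6. Without B10_insHEL replicate 2, edgeR called 1 of the 29 chaperone and folding genes negative, and their median was -0.29. It called 0 of the 30 sensor and degradation genes there. Over all genes that fit called 65 of 15528 negative.

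**Figure D5:**
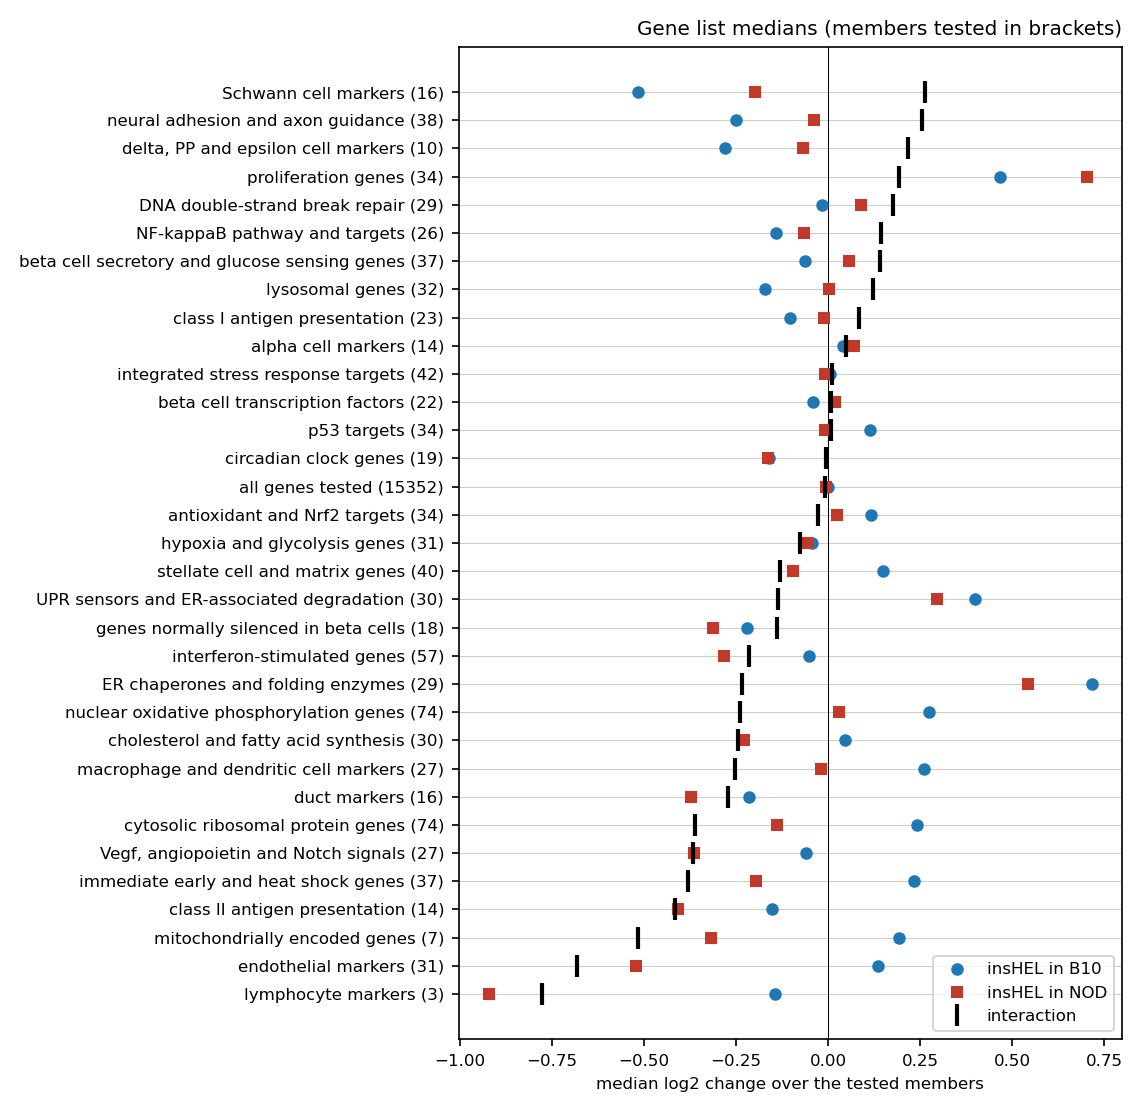
Median log2 change with insHEL in B10 (circles) and NOD (squares) and median log2 interaction (black ticks) over the tested members of 32 gene lists and over all genes, with the number of members in brackets; the acinar list is left out because 1 library sets it. ER chaperones lie far right in both backgrounds, and endothelial markers lie right of 0 in B10 and left of 0 in NOD.

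Interferon-stimulated genes and class I and class II antigen presentation genes gave no call with all libraries. Of 57 interferon-stimulated genes none passed by edgeR (9 at an unadjusted p under 0.05, 0 by DESeq2 among 31), with a median log2 interaction of -0.21. Oasl1 (-2.24, SE 0.56, adjusted p = 0.153, edgeR) and Irf7 (-1.26, SE 0.42, adjusted p = 0.262) led. Of 14 class II antigen presentation genes none passed by edgeR (3 at an unadjusted p under 0.05, 0 by DESeq2 among 7), and the invariant chain gene Cd74 had -0.71 (SE 0.21, adjusted p = 0.213) and H2-Eb1 also -0.71 (SE 0.22, adjusted p = 0.231). Of 23 class I genes none passed by edgeR (2 at an unadjusted p under 0.05, 0 by DESeq2 among 14), with Erap1, a peptide trimming enzyme, at 0.51 (SE 0.18, adjusted p = 0.279).

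Counts assigned to the class I heavy chain gene H2-K1 were far higher with insHEL on both backgrounds. It had 181, 174 and 166 CPM in B10 and 5016, 3555 and 5327 CPM in B10_insHEL. It had 227, 276 and 291 CPM in NOD and 5027, 4832 and 4458 CPM in NOD_insHEL. All transgenic libraries stood far above the others in both backgrounds, and the transgenic groups overlapped. Its log2 change was 4.74 in B10 and 4.17 in NOD, and its log2 interaction -0.56 (SE 0.19, adjusted p = 0.263, edgeR), or -0.72 (adjusted p = 0.0425) without B10_insHEL replicate 2. The class I list as a whole had a median log2 change of -0.10 in B10 and -0.01 in NOD. Whether reads of the transgene were counted on H2-K1 was not tested, so its values are not given as a response of the native gene. Class I genes are also near-identical copies of one another, so that counting can split their reads.

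Among p53 targets none of 34 passed by edgeR (3 at an unadjusted p under 0.05, against 1873 of 15352 genes), and DESeq2 called 1 of 19, against 105 of 7934. Rrm2b, a ribonucleotide reductase subunit induced by p53, came nearest, with 63.8 ± 4.61 CPM in B10 and 51.7 ± 5.96 CPM in B10_insHEL, against 39.1 ± 2.73 CPM in NOD and 54.4 ± 3.79 CPM in NOD_insHEL (SD, n = 3 each). Its log2 interaction was 0.78 (SE 0.16, adjusted p = 0.0728, edgeR), and 0.89 (adjusted p = 0.00993) without B10_insHEL replicate 2, whereas the proapoptotic target Bbc3 had -0.83 (adjusted p = 0.383). The duct list had 0 of 16 calls by edgeR (4 at an unadjusted p under 0.05) and 2 of 10 by DESeq2 (105 of 7934 over all genes). Its leading gene Spp1, osteopontin, stood at 129 ± 18.4 CPM in B10 and 100.9 ± 23.6 CPM in B10_insHEL, against 109 ± 33.0 CPM in NOD and 18.9 ± 7.65 CPM in NOD_insHEL (SD, n = 3 each), with a log2 interaction of -2.07 (SE 0.39, adjusted p = 0.132, edgeR). Krt18, a keratin of duct cells, had -0.72 (SE 0.19, adjusted p = 0.172, edgeR) with all libraries and -0.79 (adjusted p = 0.0443) without B10_insHEL replicate 2.

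Genes of short transcripts leaned negative together, and this lean moved with transcript length across all genes. The median log2 interaction was -0.14, -0.06, 0.01 and 0.12 in 4 equal classes of genes from the shortest to the longest exonic length. Of 74 cytosolic ribosomal protein genes 61 were negative (median -0.36), of 74 nuclear oxidative phosphorylation genes 63 (median -0.24) and of 7 mitochondrially encoded genes 7 (median -0.52). With all libraries none was called by edgeR (14, 18 and 6 at an unadjusted p under 0.05) or by DESeq2 (39, 65 and 7 tested). The shares over all genes tested were 50.8% negative and 1873 of 15352 at an unadjusted p under 0.05. Without B10_insHEL replicate 2, edgeR called 1, 5 and 0 of these genes negative and 0 positive. Over all genes that fit called 65 of 15528 negative. With each library's long-gene level as a covariate the medians were -0.03, 0.08 and -0.19. That level was higher in the B10 libraries and in B10_insHEL replicate 2 than in all other libraries. It thus partly follows the groups of the contrast, and the part of length in these medians was not tested. Leading members were Rpl30 (-0.58, adjusted p = 0.204, edgeR), Rps9 (-0.62), the ATP synthase subunit gene Atp5e (-0.65, adjusted p = 0.193), Ndufa2 of complex I (-0.66), mt-Nd4 (-0.58, adjusted p = 0.263) and mt-Co1 (-0.52).

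The 162 genes called without B10_insHEL replicate 2 held the 27 acinar markers that passed, all positive, of 43 tested. With all libraries none of 42 acinar markers passed by edgeR (2 at an unadjusted p under 0.05, 0 by DESeq2 among 14), and their median log2 interaction was 0.72. Without the library it was 4.83, from -6.31 in B10 and -1.34 in NOD, beside the high acinar level of the B10 libraries given above. Of the 2 leading members, the orphan nuclear receptor gene Nr5a2 had -1.32 (adjusted p = 0.343, edgeR). Reg3g stood at 4.21, 2.70 and 2.73 CPM in B10 and at or under 1.05 CPM in every other library.

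Outside the acinar list 135 genes were called without that library, 70 positive and 65 negative. By pattern 98 of the 162 were called with insHEL in B10 and not in NOD, 29 in NOD and not in B10, 18 in both with opposite signs, 13 in both with the same sign and 4 in neither. Besides genes named above, those with the highest log2 interaction were the BMP receptor gene Bmpr1b (3.02, adjusted p = 0.000353, edgeR), Pirt, which regulates Trp channels (2.38), the complement protease relative C1rl (2.18), the actin nucleator Fmn1 (1.69), the testican Spock3 (1.58), the chromatin remodeller Baz1a (1.42) and Ankrd26 (1.39). Bmpr1b fell by 2.27 on the log2 scale in B10 and changed by 0.74 in NOD (adjusted p = 0.0887), and with all libraries its interaction was 2.37 (adjusted p = 0.0728).

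Most negative in that fit were Acsf2, an acyl-CoA synthetase (-2.37), Mesp1 (-1.81), the retinol-binding protein gene Rbp7 (-1.64), Cd38, which makes cyclic ADP-ribose (-1.40), Btbd17 (-1.25) and the brain-type creatine kinase gene Ckb (-1.21). They were followed by Trappc6a (-1.18), Ppie (-1.15), Meox1 (-1.14), Sema3f (-1.12), Rtl8b (-1.12) and the monoacylglycerol lipase gene Mgll (-1.10). Rbp7, Cd38 and Mgll rose with insHEL in B10 and fell in NOD, as Ankrd26 did in the reverse order. Of the 162 genes, 160 had the same sign with all 12 libraries. The positive genes had a median exonic length of 6044 bases, the negative ones 2142 and all genes tested 4182.5, so these calls moved with length as well, and its part in them was not tested.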

How the data were processed

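Islet RNA was sequenced from 12 mice, 1 library each, with a stranded mRNA kit per the labels' protocols, after collagenase digestion with inhibitors of transcription present. The deposited table holds raw read counts per Ensembl gene, made by the authors; per the submitters' processing notes the tools were DESeq, HTSeq, TopHat2 2.0.8b and cutadapt, with build GRCm38. Its annotation release, strand setting and counting mode are not given in the sources used here. Of 38561 genes 36723 (95.23%) got a symbol from GENCODE vM21, holding 99.8% of counts; every row names a gene.

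The analysis used edgeR 4.0.16 in R 4.3.3. Genes that passed filterByExpr were kept, libraries were scaled by TMM, and 1 quasi-likelihood model of 4 group means was fitted to all 12 libraries (common biological coefficient of variation 0.142). Tests are two-sided F-tests with Benjamini-Hochberg adjustment over all 15352 genes and a threshold of 0.05. DESeq2 1.42.0 was an alternative, as were other normalizations, filters and covariates, depth thinning, a replicate block and leaving out each library. Simulated data with 200 changed genes served to check that the contrast has the right sign. They used the same dispersion for every gene and held no strain, acinar or length differences, so they do not test the calls made here. The labels call the samples separate mice, so p-values measure the spread between mice. No 2 libraries were identical.

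Members and gene lists (33 lists, 1076 of 1083 entries in the file) were chosen with earlier results of these data known. The 2 further alternatives, a long-gene covariate and leaving out B10_insHEL replicate 2 with NOD_insHEL replicate 3, were added after seeing the data, and "with and without B10_insHEL replicate 2" was made a standing comparison after its acinar level was seen. Named genes are (a) the up to 12 highest and 12 lowest log2 interactions among called protein-coding genes with a proper symbol, at least 1 CPM in a group, no place in the acinar list and no library overlap in the background with the larger change; (b) up to 10 such genes with opposite responses; (c) of each list described, up to 4 called members or else the 2 with the smallest p; and (d) Glis3, Xrcc4, Ins1, Ins2, Iapp, Gcg and Sst. Others are said to be named after their values were seen. Lists are described by counts and medians, without a set test. Each list's count at an unadjusted p under 0.05 stands beside 1873 of 15352 over all genes tested. Promoter sequences are RefSeq's, found for 7 of the 9 genes. Same-numbered libraries of different groups did not deviate together (18 correlations of deviations from -0.084 to 0.080), so numbers do not pair mice.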

Additional observations from a re-analysis of the deposited data

Results flagged for a closer look

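The effect of insHEL differed between the backgrounds by the interaction test in 9 genes. The log2 interaction, NOD minus B10, was 2.81 for Mlph, 1.90 for Pla2g2d, 1.87 for Chl1, 1.81 for Dpp4, 1.04 for Fmo1, 0.96 for Ank2, 0.88 for Slitrk6, -0.82 for Flt1 and -1.03 for Podxl. Groups of 3 mice were given no formal outlier test.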

How the results depend on the processing

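With edgeR's quasi-likelihood test and adjusted p under 0.05, the interaction was called in 9 genes. The count was 7 with DESeq2's size factors, 9 with a filter of 1 CPM in 6 libraries, 13 with libraries thinned to the shallowest, 105 by DESeq2's Wald test, 161 with no filter, 40 with the acinar level, 4 with the islet number and 3 with the long-gene level as covariate, and 283 without B10_insHEL replicate 2 and NOD_insHEL replicate 3. Leaving out 1 library gave 2 to 162 genes: 162 without B10_insHEL replicate 2, 20 without NOD replicate 1, 6 without B10_insHEL replicate 1 or NOD_insHEL replicate 3, 5 without B10 replicate 2, 3 without B10 replicate 1, B10_insHEL replicate 3 or NOD_insHEL replicate 1 or 2, and 2 without B10 replicate 3 or NOD replicate 2 or 3. DESeq2 gave Mlph and Pla2g2d no adjusted p. With the replicate number as a block the interaction was called in 8 genes, the insHEL effect in B10 in 1032 and in NOD in 961. The numbers showed no sign of pairing the mice. Opposite responses were 5 genes with all libraries, 0 with the block, thinning or the long-gene level, and 18 without B10_insHEL replicate 2.

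The insHEL effect in B10 was called in 1052 genes: 233 with the acinar level, 578 with the islet number, 325 with the long-gene level, 609 after thinning, 1754 without both libraries, and 428 to 1566 leaving out 1 library. The insHEL effect in NOD was called in 1084: 476 after thinning, 1964 without both libraries, and 107 (without NOD_insHEL replicate 1) to 1522 leaving out 1 library. The causes were not tested.

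None of the 9 genes changed sign under any alternative run. Uncalled genes that did included C1qa (0.13), Ins2 (0.080) and Myo5a (-0.13) with the long-gene level, and Sst (-0.034) and Glis3 (0.17) without both libraries. Leaving out 1 library, log2 interactions ran from -0.0076 to 0.83 for Gcg, -0.11 to 0.55 for Sst, -0.0082 to 0.39 for Xrcc4 and -0.21 to 0.063 for Glis3. Each of these genes thus changed sign in at least 1 such fit. The limits are 3 mice a group, a shallowest library of 2212062 counts, and B10 libraries numbered apart from the rest.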

Other observations

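Other gene groups, described by counts alone, gave no call by edgeR with all libraries. Over all genes tested, 50.8% were negative and 1873 of 15352 had an unadjusted p under 0.05, and DESeq2 called 105 of 7934. Of 30 cholesterol and fatty acid synthesis genes 23 were negative (8 at an unadjusted p under 0.05, 1 of 25 called by DESeq2; median log2 interaction -0.24). Insig1, which holds sterol sensing in the ER, had -0.62 (adjusted p = 0.162) and the mevalonate kinase gene Mvk -1.04 (adjusted p = 0.245). Of 37 immediate early and heat shock genes 27 were negative (4 at an unadjusted p under 0.05, 0 of 21 by DESeq2; median -0.38), led by the mitochondrial chaperonin gene Hspe1 (-0.95, adjusted p = 0.259) and Jun (-0.68, adjusted p = 0.268). Of 32 lysosomal genes 22 were positive (6 at an unadjusted p under 0.05, 1 of 30 by DESeq2; median 0.12), with Lamp2 at 0.57 (adjusted p = 0.181) and the ceramidase gene Asah1 at 0.59 (adjusted p = 0.241). Proliferation genes, with a median log2 change of 0.47 in B10 and 0.70 in NOD, had a median interaction of 0.19 (4 of 34 at an unadjusted p under 0.05, 0 of 5 by DESeq2). Nqo1, an antioxidant enzyme gene, had a log2 change of -1.52 in B10 and -0.46 in NOD, with an interaction of 1.06 (adjusted p = 0.262). Among circadian clock genes 0 of 19 passed (2 at an unadjusted p under 0.05, 0 of 14 by DESeq2), the repressor gene Bhlhe41 standing at 0.72 (adjusted p = 0.255). All adjusted p-values here are edgeR's.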
